A study of Rattus norvegicus with 89 samples.

Results

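The kidney RNA of 30 rats given 1 of 5 nephrotoxicants for 1 day was compared with that of 6 rats given valproic acid for 1 day. The members are the 36 arrays, of 89 in the series, whose titles name 1 day of Gentamycin, Tobramycin, Cisplatin, Cadmium, Doxorubicin or ValproicAcid, with 6 rats in each group. Each nephrotoxicant group entered with the same weight, and the value tested was the mean of the 5 groups minus the valproic acid group. No saline array entered this contrast, so it sets the groups against valproic acid and not against vehicle. The animals were Sprague-Dawley Crl:CD(SD) rats of 7 to 8 weeks at the start, 3 males and 3 females in each group, housed singly and acclimated for 6 days. RNA came from the apical parts of both kidneys of each rat, homogenized, and was hybridised to an Affymetrix rat array, 1 array per rat, so p-values measure the spread between rats. Doses and the hour of autopsy are not in the labels, and the compounds are set side by side without them. The levels of 7 saline rats of day 1 and 6 naive rats are given beside the contrast as a description.

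Gentamicin (Gentamycin in the labels) and tobramycin are aminoglycoside antibiotics that enter proximal tubule cells by endocytosis and collect in their lysosomes. Cisplatin crosslinks DNA, cadmium is a metal bound by metallothioneins and held in the proximal tubule, and doxorubicin is an anthracycline that poisons DNA topoisomerase and injures podocytes in the rat. Valproic acid is a branched fatty acid used against epilepsy and an inhibitor of histone deacetylases. The adult kidney tubule divides rarely, and transcripts of mitosis are low in it until the epithelium is repaired.

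Kidney markers were high in the arrays. Slc34a1, the phosphate transporter of the proximal tubule brush border, had a scaled signal of 3538 to 8015 in the 30 nephrotoxicant rats and 4380.4 to 6726 in the 6 valproic acid rats. Signals of some adrenal and fat cell markers varied between rats. Of the adrenal cortex markers, Cyp11b1 lay under 33.1, the limit used below to select genes, in 36 of 36 arrays, Cyp21a1 in 34 and Hsd3b1 in 18. Of the adipocyte markers, Cfd ran from 5.75 to 702 in the nephrotoxicant and 1.50 to 864 in the valproic acid rats, and Ucp1 from 1.55 to 585 and 3.43 to 379. Their part in the results was not tested. Rank correlation between the 36 arrays was 0.910 to 0.988. Valproic acid female 7F155 had the lowest median correlation with the others (0.943, next 0.949) and a 3'/5' log2 ratio of the Gapdh control probes of 1.24, against 0.200 to 0.591 in the nephrotoxicant rats. Cadmium female 5F137 carries a treatment text that says untreated although the title says cadmium. Because whole tissue was measured, fewer cells of a type and less RNA per cell cannot be told apart.

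At day 1, 22 of the 11090 genes tested passed (limma with Benjamini-Hochberg adjustment over all genes, adjusted p under 0.05), which is 0.198% of them. Of these, 17 genes were lower in the nephrotoxicant groups than in the valproic acid group (0.153%) and 5 were higher (0.0451%). Of the 17 lower genes 7 are in the cell cycle list used here, namely Top2a, Mki67, Cdk1, Ccnb2, Prc1, Ccnb1 and Nusap1. They were lower than with valproic acid by 0.49 to 0.80 on the log2 scale. Cdca3, Ect2 and Cdkn3, which are not in that list, were lower by 0.86, 0.66 and 0.64. The higher ones were Cst7, Cd68, Ap2a2, Ptprk and Spcs2, by 0.22 to 0.65. At an unadjusted p under 0.05 there were 1271 genes, where 554 are expected if nothing differed. In 0 of 11090 genes did all 30 nephrotoxicant rats lie on the same side of all 6 valproic acid rats.

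The size of the list moved with single rats and with the settings. It held 7 genes without 7F156, 11 without 7M55, 11 without 7M56 and 14 without 7F155, but 26 without 7M57, all valproic acid rats. It held 29 without gentamicin rat 2M12 and 18 without cadmium rat 5F137. It held 1 gene with the deposited signals left unscaled, 7 with no term for sex, 11 with cadmium left out of the mean, 12 in a fit on all 89 arrays and 13 with the Gapdh ratio as a covariate. A stricter filter on low signals kept 8 of the 22 genes in the test and 0 passed, the lowest limma adjusted p among these 8 being 0.0577. Among the genes it dropped were Top2a, Mki67, Cdk1, Ccnb2, Prc1, Ccnb1, Nusap1, Cdca3, Ect2 and Cdkn3, and also Cst7, Cd68 and Mt3. These were not tested under it. Top2a passed in 36, Cdca3 in 36, Cdk1 in 36 and Cdkn3 in 36 of the 36 fits with 1 rat left out.

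Top2a encodes the DNA topoisomerase that untangles replicated chromosomes and that doxorubicin targets. Its scaled signal had a lowest, median and highest value of 69.8, 90.1 and 130.9 in the valproic acid rats, 36.04, 53.9 and 80.8 with gentamicin, 41.4, 55.8 and 81.3 with tobramycin, 33.6, 49.4 and 63.9 with cisplatin, 23.6, 32.4 and 61.3 with cadmium, and 32.7, 44.4 and 65.8 with doxorubicin. The valproic acid rats were the high group: 28 of the 30 nephrotoxicant rats lay below the lowest of them, and the exceptions were gentamicin male 2M10 and tobramycin female 4F128. The difference was -0.80 ± 0.13 (SE, log2, 36 rats; 95% interval -1.06 to -0.54; limma adjusted p = 0.00143). Saline rats averaged 48.8 ± 12.9 (SD, n = 7) and naive rats 52.1 ± 27.7 (SD, n = 6), beside 48.7 ± 14.7 (SD, n = 30) in the nephrotoxicant rats. Valproic acid stood 0.78 above saline (95% interval 0.46 to 1.11), and the mean of the 5 differed from saline by -0.02 (95% interval -0.26 to 0.23).

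Cdca3, whose product triggers entry into mitosis, ran from 75.1 to 122.1 (median 91.2) with valproic acid and from 21.5 to 80.1 (median 42.8) in the nephrotoxicant rats. Of the 30, 27 lay below the lowest valproic acid rat, and the others were 1 rat each of gentamicin, tobramycin and doxorubicin. The difference was -0.86 ± 0.14 (SE, log2; limma adjusted p = 0.00143). Cdk1, the kinase that starts mitosis, ran from 52.7 to 102.8 (median 64.2) with valproic acid and from 20.04 to 81.5 (median 37.7) in the others. Its cadmium rats were the lowest group, at 28.3 ± 4.34 (SD, n = 6), and 28 of 30 rats lay below all valproic acid rats. The difference was -0.66 ± 0.11 (SE, log2; limma adjusted p = 0.00143).

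**Figure D1:**
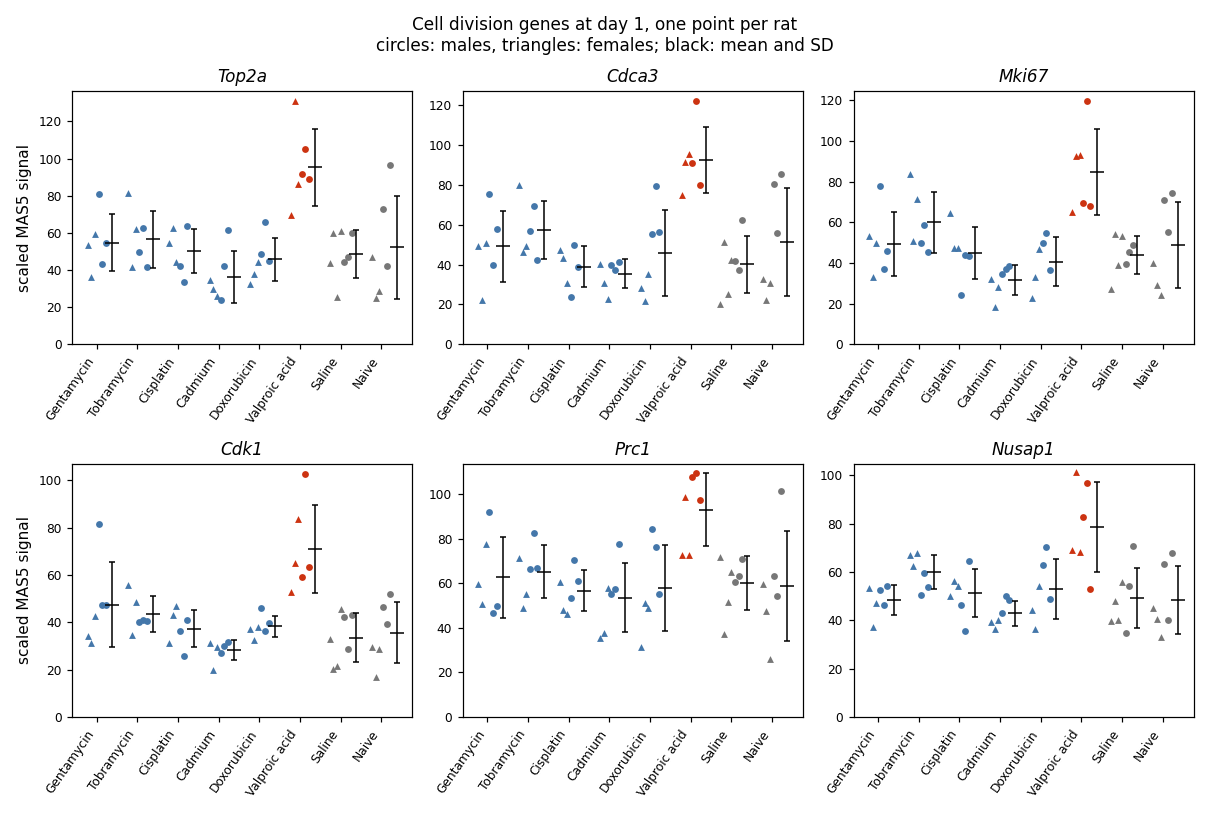
Scaled MAS5 signal (vertical axis, linear) of 6 cell division genes in each rat at day 1, by group; circles are males, triangles females, and the black bars the mean and SD. The valproic acid rats (red) have the highest mean in each panel (Top2a 95.4, Cdk1 71.1), while the nephrotoxicant groups (blue) overlap with the saline and naive rats (grey).

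Mki67, the Ki-67 protein of dividing cells, had medians of 81.1 (65.1 to 119.6) with valproic acid and 45.7 (18.5 to 83.8) in the nephrotoxicant rats, of which 27 lay below the lowest valproic acid rat. Its difference was -0.73 ± 0.13 (SE, log2; limma adjusted p = 0.00555). Both B-type cyclins, which activate Cdk1, were also highest with valproic acid. Ccnb2 had medians of 69.6 (55.9 to 77.7) and 41.2 (22.9 to 84.8), with 24 rats below all valproic acid rats and 1 above all of them. Ccnb1 had medians of 61.7 (43.7 to 80.9) and 38.2 (18.2 to 68.1), with 21 rats below. In the nephrotoxicant groups they were lower by 0.55 and 0.50 on the log2 scale (limma adjusted p = 0.0106 and 0.0364).

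Prc1, which bundles microtubules between separating chromosomes, had medians of 97.9 (72.7 to 109) with valproic acid and 56.4 (31.6 to 92.0) in the others, with 24 of 30 below. Nusap1, a spindle protein, had medians of 76.0 (52.8 to 101.5) and 50.3 (35.5 to 70.4), with 17 of 30 below. Ect2, an exchange factor needed for cell cleavage, ran from 44.0 to 133.4 and from 23.3 to 94.1, with 13 of 30 inside the valproic acid range. These genes were lower than with valproic acid by 0.55, 0.49 and 0.66 (limma adjusted p = 0.0106, 0.0106 and 0.00555). Cdkn3, a phosphatase acting on cyclin-dependent kinases, was lower by 0.64 (limma adjusted p = 0.00555). Many of these signals were dim: 17 of 30 nephrotoxicant rats lay under 33.1 for Cdkn3 and 10 of 30 for Cdk1, against 0 and 0 of 6 valproic acid rats.

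The cell cycle list held 34 genes, of which 33 were measured and 28 passed the filter on low signals. Of those tested, 23 were lower in the nephrotoxicant groups and 5 higher, with a median difference of -0.26. Over all 11090 genes tested, 46.5% were higher and the median was -0.01. The 7 list genes that passed were Top2a, Cdk1, Mki67, Prc1, Ccnb2, Nusap1 and Ccnb1, all lower, and 16 had an unadjusted p under 0.05. Kif20a, Cenpf and Ccna2, which act in mitosis or late in the cycle, differed by -0.46, -0.42 and -0.45 without passing (limma adjusted p = 0.0552, 0.104 and 0.198). Members of like role differed among themselves: the replicative helicase subunits ran from -0.24 for Mcm6 through -0.18 for Mcm7 and -0.18 for Mcm4 to 0.11 for Mcm5. Kif11, a spindle motor, differed by 0.30 and Birc5, a protein of the mitotic chromosome passenger complex, by -0.0024, and none of these passed. Against saline, the median over the list was 0.27 for valproic acid and 0.03 for the mean of the 5. Under the stricter filter the list median was -0.065, with 4 of 7 genes still tested lower and 0 passed. That filter dropped all of the list genes named above as passed, so this median covers a different part of the list. At a pseudocount of 64 the list median was -0.15. Without rat 7F155, 8 list genes passed, and without 7F156, 3.

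The promoters of the 7 list genes that passed are shown because these genes moved together and because mitotic genes are known to carry a cell cycle homology element, TTTGAA, near CCAAT boxes. Letters are the 200 bases before the start site on the strand of the gene, from RefSeq on GRCr8, with matches to TTTGAA and CCAAT on either strand in capitals. Of the 7 list genes that passed, all had an entry, 5 held TTTGAA and 7 held CCAAT. Among the 9243 tested genes with an entry, 7.335% held TTTGAA, 31.36% CCAAT and 2.521% both. Among the 22 tested cell cycle list genes with an entry, passed or not, 8 held TTTGAA and 16 CCAAT. Of the 16 genes with an entry among all 17 that were lower, 7 held TTTGAA and 10 CCAAT, and Cdca3 held no TTTGAA. A match is a run of letters and not a measured binding site.
Cdk1 lies at chr20:19265093-19265292 on the plus strand, with TTTGAA 72 and 16 and CCAAT 81 and 49 bases before the start.
Cdk1: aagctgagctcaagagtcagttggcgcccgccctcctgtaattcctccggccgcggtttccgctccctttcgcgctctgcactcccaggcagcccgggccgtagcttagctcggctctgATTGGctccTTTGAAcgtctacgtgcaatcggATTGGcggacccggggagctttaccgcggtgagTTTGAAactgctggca
Top2a lies at chr10:84473094-84473293 on the minus strand, with TTTGAA at 22 and CCAAT at 161 and 57.
Top2a: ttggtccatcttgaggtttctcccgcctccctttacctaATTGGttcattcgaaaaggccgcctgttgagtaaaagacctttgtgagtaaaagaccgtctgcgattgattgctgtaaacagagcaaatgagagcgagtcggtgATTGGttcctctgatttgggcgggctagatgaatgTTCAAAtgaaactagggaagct
Ccnb2 lies at chr8:79981659-79981858 on the minus strand, with TTTGAA at 43 and 3 CCAAT matches.
Ccnb2: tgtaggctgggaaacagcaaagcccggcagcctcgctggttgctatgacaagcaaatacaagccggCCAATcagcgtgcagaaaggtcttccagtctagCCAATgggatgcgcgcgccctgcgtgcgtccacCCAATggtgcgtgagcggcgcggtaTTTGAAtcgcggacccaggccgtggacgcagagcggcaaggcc
Prc1 lies at chr1:143659281-143659480 on the plus strand, with TTTGAA at 18 and CCAAT at 50.
Prc1: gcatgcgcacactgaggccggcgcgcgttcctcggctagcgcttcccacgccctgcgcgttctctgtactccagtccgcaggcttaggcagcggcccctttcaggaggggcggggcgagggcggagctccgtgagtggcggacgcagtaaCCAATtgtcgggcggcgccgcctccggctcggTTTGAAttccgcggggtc
Mki67 lies at chr1:199952594-199952793 on the minus strand, with TTTGAA at 117 and 99 and 4 CCAAT matches, of which the nearest to the start overlaps a TTTGAA.
Mki67: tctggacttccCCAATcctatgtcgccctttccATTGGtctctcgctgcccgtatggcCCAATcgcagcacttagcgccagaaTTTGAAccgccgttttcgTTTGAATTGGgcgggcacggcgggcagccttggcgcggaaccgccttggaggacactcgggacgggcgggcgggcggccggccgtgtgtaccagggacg
Ccnb1 lies at chr2:33655226-33655425 on the minus strand, with no TTTGAA in this window and 2 CCAAT matches.
Ccnb1: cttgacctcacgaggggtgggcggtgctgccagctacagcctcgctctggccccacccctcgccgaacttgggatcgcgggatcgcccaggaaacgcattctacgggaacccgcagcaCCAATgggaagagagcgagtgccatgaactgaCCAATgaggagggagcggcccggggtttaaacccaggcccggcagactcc
Nusap1 lies at chr3:127057095-127057294 on the plus strand, with no TTTGAA in this window and 2 CCAAT matches.
Nusap1: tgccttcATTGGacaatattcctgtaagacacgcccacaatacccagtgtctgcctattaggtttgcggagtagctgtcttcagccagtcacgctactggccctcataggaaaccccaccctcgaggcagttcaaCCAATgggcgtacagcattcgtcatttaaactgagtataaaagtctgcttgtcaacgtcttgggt

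Mt3, a metallothionein best known from brain, had the largest difference of the 22 genes, -0.997 ± 0.22 (SE, log2; limma adjusted p = 0.0420). Its signal was dim, from 35.8 to 99.98 (median 55.3) with valproic acid and from 5.42 to 80.0 (median 24.1) in the nephrotoxicant rats, of which 22 lay under 33.1. Doxorubicin rats were the nearest to valproic acid, at 42.9 ± 24.3 (SD, n = 6), and tobramycin rats the farthest, at 14.3 ± 13.1 (SD, n = 6). It passed in 15 of the 36 fits with 1 rat left out. The common metallothionein Mt2A averaged 3549 in the nephrotoxicant and 3668 in the valproic acid rats (-0.04) and did not pass. Of 12 tested metallothioneins and zinc transporters, 4 were higher and 8 lower, and Mt3 alone passed.

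The other genes that were lower had smaller differences. H6pd, which makes NADPH inside the endoplasmic reticulum, had medians of 524 (430.1 to 658) with valproic acid and 421 (311 to 582) in the others. It was lower than with valproic acid by 0.33 (limma adjusted p = 0.0106). Prxl2a, a peroxiredoxin-like protein, was lower by 0.32 and Ptprm, a receptor tyrosine phosphatase, by 0.37 (limma adjusted p = 0.0178 and 0.0489). Ptprm passed in 11 of the 36 fits with 1 rat left out and in 6 of 18 other settings. Its other probe set differed by -0.17 (limma adjusted p = 0.515 over all probe sets). Pir, an iron-binding nuclear protein, was lower by 0.48 and Cep63, a centrosome protein, by 0.61 (limma adjusted p = 0.0106 and 0.0364). In the valproic acid group both were higher in females: Pir ran from 212 to 285 in the 3 females and from 91.6 to 109 in the 3 males, and Cep63 from 370.5 to 718 and from 176 to 279.7. The difference of Pir was -0.30 in males and -0.67 in females, and that of Cep63 -0.51 and -0.70.

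Cst7, the leukocyte protease inhibitor cystatin F, had the largest difference among the 5 higher genes. Its signals were low, with a lowest, median and highest value of 6.14, 24.7 and 33.9 in the valproic acid rats and 25.5, 45.4 and 70.2 in the nephrotoxicant rats. The valproic acid rats were the low group, and 25 of 30 nephrotoxicant rats lay above the highest of them. Of the valproic acid rats 5 of 6 lay under the limit of 33.1, as did 5 of the 30 others, so the size of the difference is set against signals that are mostly under the limit. The fitted difference was 0.65 ± 0.13 (SE, log2; 95% interval 0.39 to 0.91; limma adjusted p = 0.0106). Saline rats averaged 41.2 ± 5.97 (SD, n = 7), and valproic acid differed from saline by -0.59 (95% interval -0.90 to -0.29).

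Cd68, a lysosomal glycoprotein of macrophages, ran from 28.0 to 72.4 (median 57.1) with valproic acid and from 57.6 to 135 (median 84.2) in the nephrotoxicant rats. Tobramycin rats were the highest group, at 111.1 ± 18.9 (SD, n = 6), and doxorubicin rats the lowest of the 5, at 69.9 ± 6.26 (SD, n = 6). Of the 30 rats, 19 lay above all valproic acid rats and 11 within their range. The difference was 0.60 ± 0.12 (SE, log2; limma adjusted p = 0.0106). Against saline, valproic acid stood at -0.31 (95% interval -0.60 to -0.01) and the mean of the 5 at 0.29 (95% interval 0.07 to 0.52). With 1 rat left out, Cst7 passed in 34 and Cd68 in 34 of 36 fits.

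Ap2a2, a subunit of the clathrin adaptor of the plasma membrane, had medians of 608 (528 to 778) with valproic acid and 782 (595 to 980.0) in the others. Ptprk, a receptor tyrosine phosphatase, had medians of 216 (193 to 239) and 256 (198 to 325). Spcs2, a subunit of the signal peptidase, had medians of 547 (470.5 to 608) and 639.6 (551 to 728). The groups overlapped in all of these, with 14, 12 and 9 of 30 nephrotoxicant rats inside the valproic acid range. Differences were 0.30, 0.23 and 0.22 (limma adjusted p = 0.0475, 0.0244 and 0.0393), and they passed in 11, 31 and 21 of the 36 fits with 1 rat left out. The other probe set of Ptprk differed by 0.10 (limma adjusted p = 0.645 over all probe sets).

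**Figure D2:**
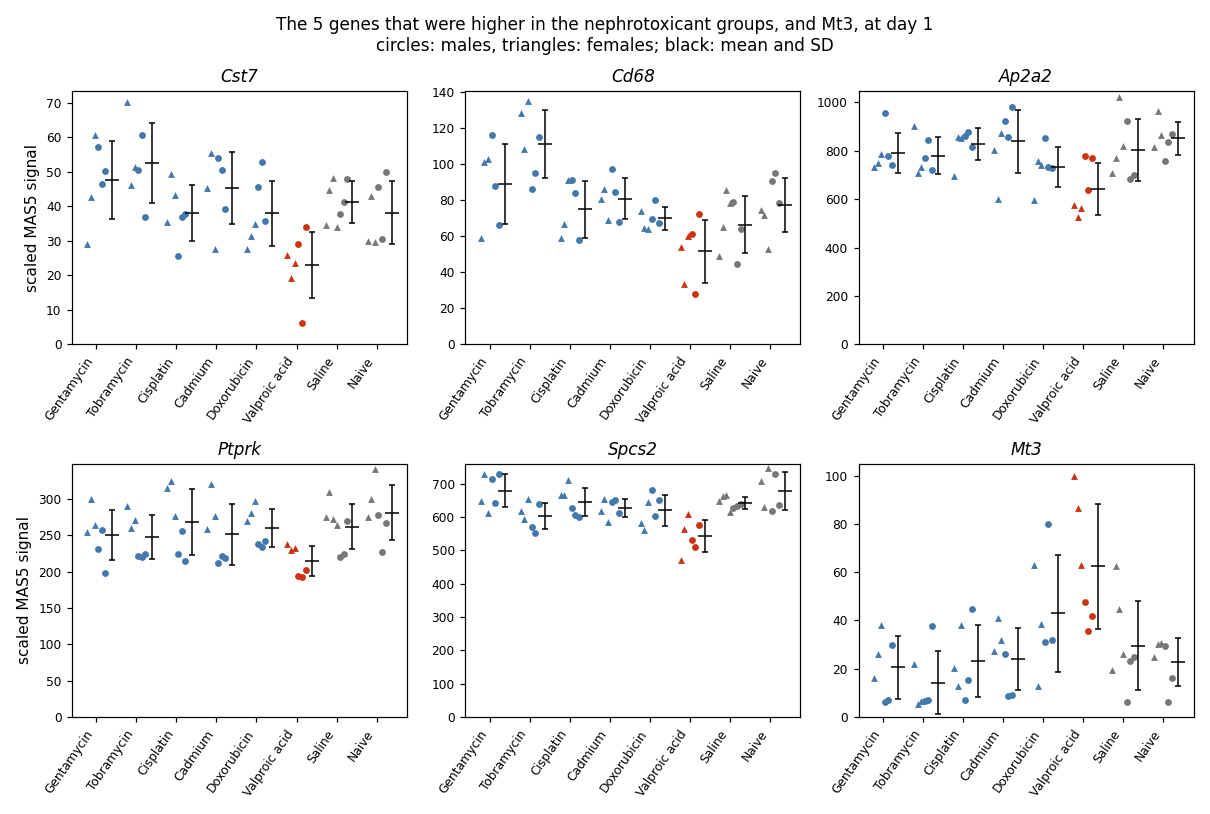
Scaled MAS5 signal (vertical axis, linear) in each rat at day 1 of the 5 genes that were higher in the nephrotoxicant groups, and of Mt3; circles are males, triangles females, black bars mean and SD. Valproic acid (red) has the lowest mean for Cst7 (22.9) and Cd68 (51.5) and the highest for Mt3 (62.5).

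Macrophage and granulocyte markers were higher in the nephrotoxicant groups for 17 of 19 genes tested (23 in the list, 22 measured), with a median of 0.24. Cd68 alone passed, and 10 had an unadjusted p under 0.05. Over all 11090 genes tested, 46.5% were higher, 0.198% passed and 1271 had an unadjusted p under 0.05. A score over the list was the mean log2 signal of its genes, each centred on the 36 arrays. It averaged 0.24 with tobramycin, 0.13 with cadmium, 0.03 with gentamicin, -0.05 with cisplatin and -0.15 with doxorubicin. With valproic acid it averaged -0.19 and with saline -0.06. Coro1a, an actin regulator of leukocytes, had medians of 134 (118 to 139.6) with valproic acid and 188 (107 to 335) in the others (0.47 ± 0.11, SE; limma adjusted p = 0.0661). Lyz2, lysozyme, differed by 0.24 and C1qb, a complement chain of macrophages, by 0.39 (limma adjusted p = 0.198 and 0.266). The summed signal of the list ran from 3947 to 6663 in the nephrotoxicant, 3750.0 to 4762 in the valproic acid and 3616 to 5286 in the saline rats. Cd163 lay under 33.1 in 36 and Itgam in 36 of 36 arrays. Of 7 tested lymphocyte markers, 5 were higher (median 0.11) and 0 passed, and Cd3e and Cd3d lay under the limit in 36 of 36 arrays. The part of leukocyte number in these values was not tested.

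In the mean of the nephrotoxicant groups, interferon response genes were higher in 26 of 27 tested (median 0.27). Of the genes tested 0 passed, with 7 at an unadjusted p under 0.05. Over all 11090 genes tested, 46.5% were higher, 0.198% passed and 1271 had an unadjusted p under 0.05. At that share passing, the counts of 0 passed are no result about the lists of this paragraph. The groups were not alike. A score over the list averaged 0.44 with gentamicin and 0.49 with tobramycin. It averaged -0.31 with cisplatin, -0.16 with cadmium and -0.20 with doxorubicin, against -0.25 with valproic acid. The median summed signal of the list was 5726 in the nephrotoxicant rats and 5943 with valproic acid. Isg15, a ubiquitin-like protein induced by interferon, ran from 65.4 to 252 (median 179.7) with valproic acid and from 72.9 to 1985 (median 189.8) in the nephrotoxicant rats. The aminoglycoside groups averaged 615 ± 598 (SD, n = 6) for gentamicin and 641 ± 688 (SD, n = 6) for tobramycin, beside 143 to 178 in the other 3 groups. Its difference was 0.48 (95% interval -0.29 to 1.25; limma adjusted p = 0.635). Irf1, a transcription factor of this response, differed by 0.27, and Ifi44l by 0.44 (limma adjusted p = 0.266 and 0.279). Genes of the immunoproteasome and antigen presentation were higher in 16 of 16 (median 0.13), with RT1-Da at 0.35 and Psmb8 at 0.40 (limma adjusted p = 0.228 and 0.370), and 0 passed. Of 18 inflammatory cytokines and adhesion genes 15 were higher (median 0.19), and 0 passed.

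Clock genes lay on opposite sides of 0 by their phase, without passing. Of 15 tested output genes and repressors, 12 were lower in the nephrotoxicant groups (median -0.26). Of 7 activators and genes of opposite phase, 5 were higher (median 0.17), with 0 passed in either list. Over all genes tested 46.5% were higher and 0.198% passed, so the counts of 0 passed are no result about these lists. Dbp, a clock output factor, had medians of 490.3 (377 to 717) with valproic acid and 322 (142.2 to 658) in the others (-0.58 ± 0.18, SE; limma adjusted p = 0.241). Bmal1, the clock activator, had medians of 45.8 (28.4 to 90.1) and 78.8 (26.5 to 171) (0.54 ± 0.18, SE; limma adjusted p = 0.273). The 5 groups spread widely: Dbp averaged 210.2 ± 67.0 with gentamicin, 354 ± 92.2 with tobramycin, 294 ± 94.0 with cisplatin, 437 ± 137.8 with cadmium and 512 ± 161 with doxorubicin (SD, n = 6 each). Saline rats averaged 148.2 ± 44.6 (SD, n = 7), so Dbp stood 1.68 above saline with valproic acid and 1.10 in the mean of the 5. The hour of autopsy is not in the labels, and its part in these values was not tested.

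Of 24 tested tubular injury markers, 10 were higher in the nephrotoxicant groups at day 1, with a median of -0.04, and 0 passed. Over all genes tested 46.5% were higher and 0.198% passed, so these counts are no result about the list. Havcr1, the kidney injury molecule of proximal tubule cells, ran from 13.5 to 26.9 (median 17.2) with valproic acid, all under 33.1, and from 2.78 to 208 (median 32.2) in the nephrotoxicant rats. It averaged 58.5 ± 31.98 with gentamicin, 108 ± 86.8 with tobramycin, 44.3 ± 37.2 with cisplatin, 21.98 ± 11.8 with cadmium and 20.2 ± 16.5 with doxorubicin (SD, n = 6 each). The difference of the mean of the 5 was 0.63 (95% interval 0.12 to 1.15; limma adjusted p = 0.346), and that of tobramycin alone was 1.47 (limma adjusted p = 0.0404). Lcn2, a lipocalin released by injured tubules, differed by 0.13 and Clu, clusterin, by -0.05 (limma adjusted p = 0.845 and 0.921).

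The p53, Nrf2 and endoplasmic reticulum stress lists held 0 genes that passed, where 0.198% of all genes did. Cdkn1a, the p53 target that arrests the cell cycle, differed by 0.22 (95% interval -0.09 to 0.52), and 8 of 13 p53 targets were higher (median 0.04). Of 22 Nrf2 targets 16 were lower (median -0.08) and 5 had an unadjusted p under 0.05. Me1 and Gsta3, enzymes of NADPH supply and detoxification, differed by -0.26 and -0.32, and Nqo1, Srxn1 and Akr1b8, which reduce quinones, peroxiredoxins and aldehydes, by -0.29, -0.38 and -0.86 (limma adjusted p = 0.253, 0.266, 0.271, 0.378 and 0.414). Hmox1, heme oxygenase, differed by 0.05. Of 28 genes of endoplasmic reticulum stress 20 were higher (median 0.06), with Manf, a secreted stress protein, at 0.40 (limma adjusted p = 0.0985). The mean of Manf was 465 ± 45.8 (SD, n = 6) with valproic acid, 639.7 ± 189 (SD, n = 30) in the nephrotoxicant rats and 753 ± 193 (SD, n = 7) with saline.

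The lists tied to known actions of valproic acid are short, and at 0.198% of all genes passing, their count of 0 passed is no result about them. Of 32 genes of fatty acid oxidation and PPARA targets, 18 were higher (median 0.02). Pdk4, which brakes glucose oxidation, differed by 0.01 (95% interval -0.35 to 0.38) and Cpt1a, which carries fatty acids into mitochondria, by -0.12 (95% interval -0.24 to 0.00018). Of 15 histone deacetylases and sirtuins 4 were higher (median -0.05), with Hdac8 at -0.12 and Sirt3 at 0.10. Among histone genes 3 of 8 were higher (median -0.07), with H2aj at -0.22 (limma adjusted p = 0.340). Proximal tubule transporters were higher in 24 of 32 (median 0.14), with Slco1a1 and Slc26a1, which carry organic anions and sulfate, at 0.27 and 0.27 (limma adjusted p = 0.355 and 0.360), and 0 passed. Slco1a1 lay under 33.1 in 18 of 36 arrays. It ran from 0.80 to 2950 in the nephrotoxicant and from 0.56 to 2491 in the valproic acid rats. The median over the transporters was 0.03 in males and 0.29 in females.

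**Figure D3:**
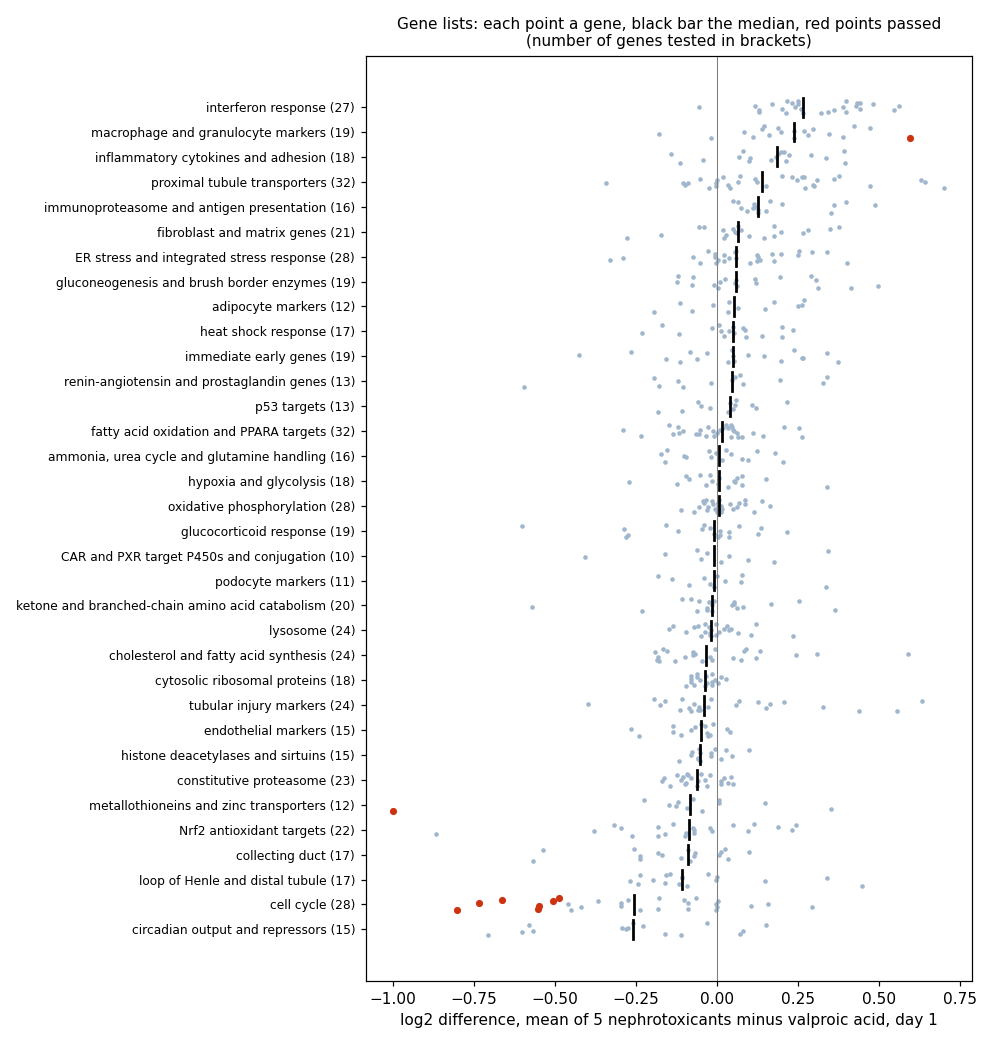
Log2 difference, mean of the 5 nephrotoxicants minus valproic acid at day 1 (horizontal axis), of each tested gene in the lists with at least 10 tested genes; black bars are list medians and red points genes that passed. The cell cycle list holds 7 red points on the left (median -0.26), and the interferon list has a median of 0.27 with 0 passed.

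Against valproic acid singly, gentamicin had 76 genes passed (0.685%; 39 higher, 0.352%, and 37 lower, 0.334%), tobramycin 42 (0.379%; 31 higher, 0.28%, and 11 lower, 0.0992%), cisplatin 17 (0.153%; 4 higher, 0.0361%, and 13 lower, 0.117%), cadmium 10 (0.0902%; all lower) and doxorubicin 0 (489 at an unadjusted p under 0.05; limma). These counts share the 6 valproic acid rats. They moved when single rats were left out, to 19 for gentamicin without 2F111 and 235 without 7M57, 7 for tobramycin without 7F156 and 78 without 4M28, 6 for cisplatin and 6 for cadmium without 7F156, and 4 for doxorubicin without 2M10. The other rats that moved a count are named with the processing alternatives.

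For Top2a the differences from valproic acid were -0.67, -0.63, -0.75, -1.11 and -0.85 with gentamicin, tobramycin, cisplatin, cadmium and doxorubicin (limma adjusted p = 0.0475, 0.0856, 0.0433, 0.000524 and 0.0810). For Cd68 they were 0.65, 0.94, 0.45, 0.55 and 0.39 in the same order (limma adjusted p = 0.0319, 0.00187, 0.219, 0.279 and 0.997). Genes outside the 22 also passed in single comparisons. With gentamicin, Manf differed from valproic acid by 0.75 and Per3, a clock repressor, by -1.39 (limma adjusted p = 0.00821 and 0.0115). Manf averaged 817 with gentamicin and 465 with valproic acid, and its saline mean, given above, was nearer to gentamicin. Slamf9, a leukocyte receptor, differed from valproic acid by 1.06 with tobramycin (limma adjusted p = 0.00883).

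Among the 5 nephrotoxicant groups themselves, 7 genes differed (0.0631%; moderated F test of limma, adjusted over all genes), and none of them is among the 22. Ccl20, a chemokine that draws lymphocytes and dendritic cells, averaged 109 ± 43.03 with gentamicin, 99.3 ± 59.6 with tobramycin, 29.04 ± 10.1 with cisplatin, 28.3 ± 10.9 with cadmium and 35.3 ± 10.7 with doxorubicin (SD, n = 6 each; limma adjusted p = 0.00107). Gadd45b, a stress-induced protein, averaged 234 ± 81.3, 258 ± 126, 90.4 ± 20.9, 113.6 ± 45.6 and 105.7 ± 20.6 in the same order (SD, n = 6 each; limma adjusted p = 0.00338). In both genes the aminoglycoside groups were the high ones, and the valproic acid means were 34.0 and 112.2. Coro1a, Ly86 and Mpeg1, all leukocyte genes, were highest with tobramycin, at 269, 145 and 390.2, and lowest with doxorubicin, at 142.3, 80.7 and 231 (limma adjusted p = 0.0460, 0.0460 and 0.0477). Of the clock repressors, Cry1 averaged 152 ± 56.3 with gentamicin (SD, n = 6) and 69.8 to 85.9 in the other nephrotoxicant groups. Nr1d2 averaged 668 ± 175 with gentamicin (SD, n = 6) and 750.3 to 1051 in the others (limma adjusted p = 0.0460 and 0.0460). The saline means of Cry1 and Nr1d2 were 155.46 and 564.4, and among the 5 groups gentamicin was the nearest to them. The valproic acid means of Cry1 and Nr1d2 were 80.01 and 1048.7. The count ran from 2 to 47 with 1 rat left out, the highest without 2M12.

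**Figure D4:**
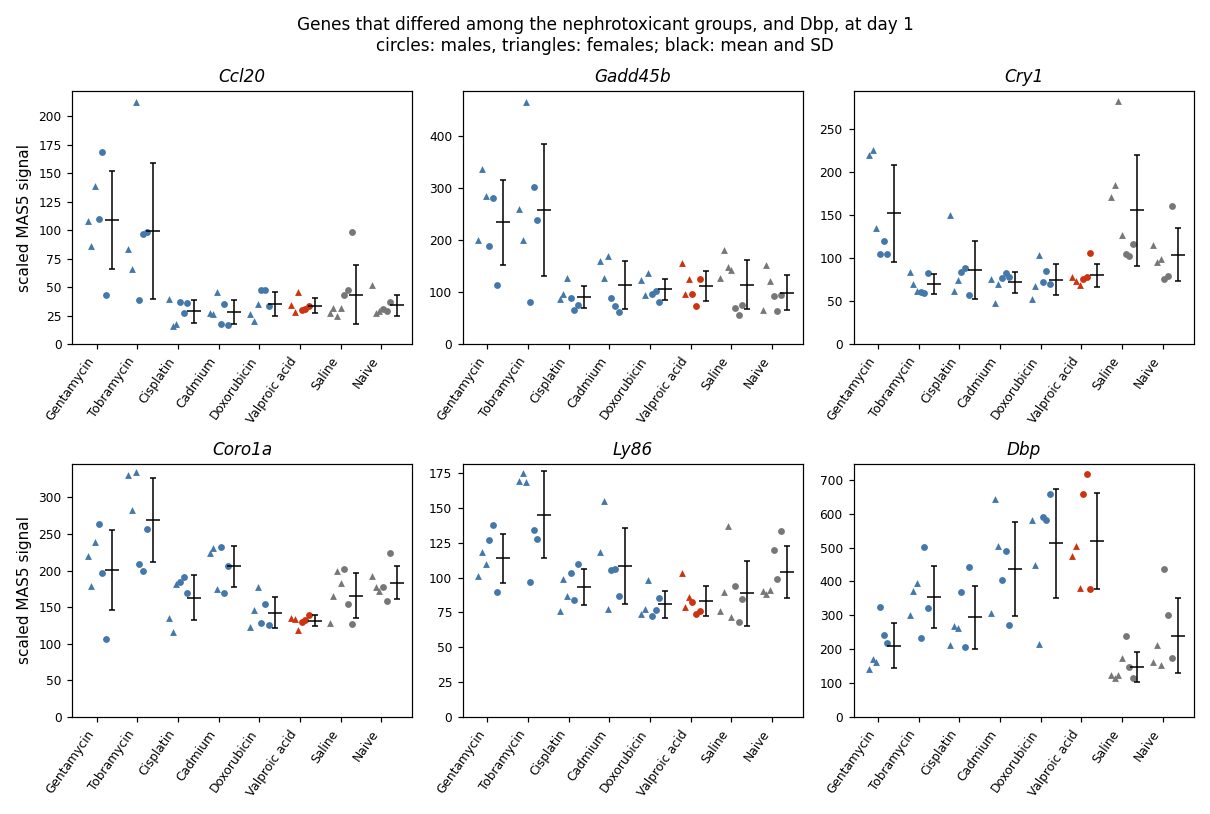
Scaled MAS5 signal (vertical axis, linear) in each rat at day 1 of Ccl20, Gadd45b, Cry1, Coro1a and Ly86, which differed among the nephrotoxicant groups, and of Dbp; circles are males, triangles females, black bars mean and SD. Ccl20 has its highest means with gentamicin (109) and tobramycin (99.3).

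The contrast was also computed in each sex. Top2a differed by -0.77 in the 18 males and -0.83 in the 18 females, Cst7 by 0.72 and 0.58 and Mt3 by -0.71 and -1.29. The difference between the sexes passed in 0 of 11090 genes (limma; 825 at an unadjusted p under 0.05). Within males alone 0 genes passed (536 at an unadjusted p under 0.05) and within females alone 1 (1727; limma).

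The same contrast was computed at day 5 in 35 other rats. Of the 22 genes, 11 kept their sign, 3 of them had an unadjusted p under 0.05 (Pir -0.27, Cep63 -0.41 and Mt3 -0.53), and 0 passed (limma). Their median difference, counted in the direction of day 1, was -0.0042 at day 5 against 0.55 at day 1. For Top2a the valproic acid mean was 41.1 at day 5 and the nephrotoxicant means were 68.7 with gentamicin, 65.7 with tobramycin, 80.0 with cisplatin, 24.9 with cadmium and 30.4 with doxorubicin. Thus 3 groups lay above valproic acid and cadmium and doxorubicin below, and the difference was 0.19 (95% interval -0.13 to 0.51). Cdk1 had 0.17 (95% interval -0.14 to 0.47) and Cd68 -0.01 (95% interval -0.42 to 0.39).

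The change of the contrast from day 1 to day 5 was 0.99 for Top2a (95% interval 0.58 to 1.40; limma adjusted p = 0.0545) and 0.77 for Ccnb1 (limma adjusted p = 0.0816), and neither passed. It passed for Hbb, a beta globin, alone (0.00902% of genes), at -1.03 (limma adjusted p = 0.0176). Hbb differed by 0.15 at day 1 and by -0.89 at day 5, where doxorubicin rats averaged 68.3 against 3682 to 5420.1 in the other nephrotoxicant groups and 3770.3 with valproic acid. No gene passed the test of change without 7M55 or without 7F155. At day 5 itself 3 genes passed (0.0271%): Hbb, Mogat2, an enzyme of triglyceride synthesis (-0.70), and Scg5, a secretory granule chaperone (-0.61), which had differed by -0.37 and -0.46 at day 1. The cell cycle list had a median of 0.12 at day 5, with 21 of 28 genes higher, against 5 at day 1.

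**Figure D5:**
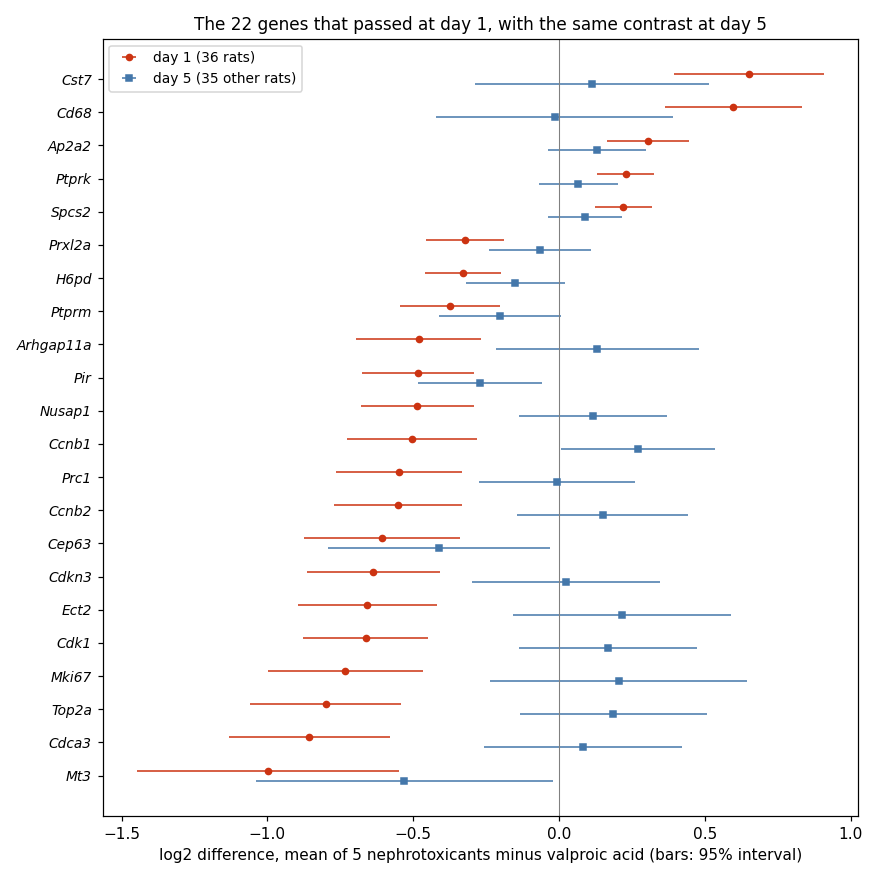
Log2 difference, mean of 5 nephrotoxicants minus valproic acid (horizontal axis), of the 22 genes that passed at day 1, with 95% intervals, at day 1 (36 rats) and day 5 (35 other rats). Top2a lies at -0.80 at day 1 and 0.19 at day 5, while Pir, Cep63 and Mt3 lie left of 0 on both days.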

How the data were processed

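Kidney RNA of 36 rats was measured on 36 arrays, part of 89. The values are linear intensity from MAS5, per the submitters' processing notes, as the authors deposited them; the labels and headers name neither its version nor its scaling target. Of 31099 probe sets, 20826 had a single gene symbol, and those without one were not named. Each array was scaled to a common 2% trimmed mean (deposited range 91.5 to 352) and transformed as log2(signal + 16), so fold changes of dim genes are understated. The probe set with the highest mean stood for its gene. Genes above the 40th percentile (signal 33.1) in at least 5 of 36 arrays were tested, 11090 of 14217.

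limma 3.58.1 in R 4.3.3 (lmFit, eBayes with trend and robust) fitted a coefficient for each group and a single additive term for sex. Benjamini-Hochberg adjustment ran over all genes, with a limit of 0.05. The contrasts within and between the sexes came from a fit with a coefficient for each sex within each group. Differences from saline come from a fit with the 7 saline rats and are a description. The steps were tested on simulated data. Alternatives were other scaling, pseudocounts, filters, covariates, array weights and leaving out rats or compounds. The number of arrays limits the precision.

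Genes named are those that passed, the 2 with the smallest p of each list described, 12 fixed genes, and the leading genes of the tests among compounds and between days. Kif20a, Cenpf, Ccna2, Mcm4, Mcm5, Mcm6, Mcm7, Kif11, Birc5, Nqo1, Srxn1, Akr1b8, Lyz2, C1qb, Slamf9, Mpeg1, Nr1d2, Mogat2, Scg5 and the lower genes beyond the 12 largest falls were chosen after their values were seen. Members and lists were chosen with earlier results of these data known. The log2 difference of 1 of the lower genes is not reported here.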

Additional observations from a re-analysis of the deposited data

Results flagged for a closer look

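In 14 of 240 groups of 6 rats checked, 1 rat lay far from the others by Dixon's criterion, which chance meets in about 1 of 20 groups. Ap2a2 was 955 in gentamicin rat 2M10, against 735 to 785 in the others of its group. Ap2a2 was 697 in cisplatin rat 3F119, against 816 to 877 in the others of its group. Cdk1 was 20.04 in cadmium rat 5F138, against 27.0 to 31.6 in the others of its group. Arhgap11a was 32.8 in gentamicin rat 2F111, against 52.1 to 64.8 in the others of its group. Hmox1 was 10.3 in tobramycin rat 4F129, against 28.9 to 45.7 in the others of its group. Pdk4 was 261 in tobramycin rat 4F129, against 474 to 595 in the others of its group. Pdk4 was 767 in valproic acid rat 7F156, against 329.9 to 449 in the others of its group. Cpt1a was 1569.6 in valproic acid rat 7F157, against 1987 to 2213 in the others of its group. Dbp was 215 in doxorubicin rat 6F148, against 448 to 658 in the others of its group. Ccl20 was 45.9 in valproic acid rat 7F157, against 28.7 to 34.1 in the others of its group. Cry1 was 48.2 in cadmium rat 5F138, against 69.7 to 82.2 in the others of its group. Cry1 was 105.7 in valproic acid rat 7M57, against 68.4 to 78.3 in the others of its group. The trimmed mean of the deposited signals was 275 in cadmium rat 5M38, against 162 to 197 in the others of its group. The 3'/5' log2 ratio of Gapdh was 1.24 in valproic acid rat 7F155, against 0.210 to 0.519 in the others of its group.

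The contrast differed between days for Hbb: the value at day 5 minus that at day 1 was -1.03 (limma adjusted p = 0.0176).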

How the results depend on the processing

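The counts of genes depend on the settings, and the cause was not tested. For all 22 calls the count of 22 became 1 (unscaled), 0 (the stricter filter), 7 (no sex term), 12 (all 89 arrays), 13 (the Gapdh covariate) and 11 (Cadmium left out of the mean), and 7 to 29 with 1 rat left out. For the 5 higher genes the count of 5 became 0 (unscaled, the stricter filter, all 89 arrays), 2 (no sex term, the Gapdh covariate), 3 (a single group of 30, all probe sets, Tobramycin left out of the mean) and 9 (Doxorubicin left out of the mean), and 0 to 9 with 1 rat left out. For the 17 lower genes the count of 17 became 1 (unscaled), 0 (the stricter filter), 5 (no sex term), 11 (the Gapdh covariate) and 7 (Cadmium left out of the mean), and 7 to 20 with 1 rat left out. For differences among the 5 the count of 7 became 2 (pseudocount 1, no trend), 11 (quantile normalization, no filter), 1 (the stricter filter, no sex term), 21 (all 89 arrays) and 40 (array weights), and 2 to 47 with 1 rat left out. For the sex difference the count of 0 became 1 (quantile normalization, the stricter filter), 45 (array weights) and 2 (the Gapdh covariate), and 0 to 2 with 1 rat left out. For day 5 the count of 3 became 1 (the stricter filter), 7 (all 89 arrays), 6 (array weights) and 5 (all probe sets). For the change between days the count of 1 became 0 (quantile normalization, unscaled), 3 (all 89 arrays), 6 (array weights) and 4 (all probe sets), and 0 to 4 with 1 rat left out. For gentamicin alone the count of 76 became 1 (unscaled), 50 (the stricter filter), 12 (no sex term) and 4 (the Gapdh covariate), and 19 to 235 with 1 rat left out. For tobramycin alone the count of 42 became 0 (unscaled), 25 (the stricter filter), 13 (no sex term), 9 (all 89 arrays), 10 (the Gapdh covariate) and 12 (all probe sets), and 7 to 78 with 1 rat left out. For cisplatin alone the count of 17 became 10 (quantile normalization, the Gapdh covariate), 0 (unscaled), 9 (the stricter filter), 4 (no sex term) and 29 (array weights), and 6 to 24 with 1 rat left out. For cadmium alone the count of 10 became 3 (unscaled), 1 (the stricter filter), 5 (no sex term) and 6 (all 89 arrays), and 6 to 12 with 1 rat left out. For doxorubicin alone the count of 0 became 3 (pseudocount 64, array weights) and 4 (quantile normalization), and 0 to 4 with 1 rat left out.

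Single rats that moved a count by over 1.5 times were as follows. For all 22 calls the count was 7 without 7F156, 11 without 7M55, 7M56, 14 without 7F155. For the 5 higher genes the count was 0 without 7F156, 2 without 7F155, 7M56, 3 without 2M10, 7M55, 5M38, 6M48, 2F111, 6F148, 6M46, 5M37, 5F137, 8 without 5F138, 9 without 2M12. For the 17 lower genes the count was 7 without 7F156, 8 without 7M55, 9 without 7M56, 11 without 7F157. For differences among the 5 the count was 2 without any of 15 rats, 3 without 5F138, 6M47, 4F130, 4 without 6F147, 3M20, 12 without 2M11, 17 without 3M19, 18 without 5M39, 19 without 3M21, 36 without 4M28, 47 without 2M12. For the sex difference the count was 1 without 2M10, 5M38, 3M21, 4F129, 6M47, 2F110, 2M12, 2 without 7M55. For the change between days the count was 0 without 7M55, 7F155, 2 without 6M47, 4F128, 5M39, 3F120, 3 without 5F139, 4 without 2M10. For gentamicin alone the count was 19 without 2F111, 22 without 7F155, 24 without 2F110, 26 without 7F156, 30 without 7M56, 177 without 2M12, 235 without 7M57. For tobramycin alone the count was 7 without 7F156, 7F155, 4F130, 8 without 7M56, 4F128, 9 without 4F129, 13 without 4M30, 14 without 7M55, 27 without 2F110, 65 without 4M29, 67 without 7M57, 78 without 4M28. For cisplatin alone the count was 6 without 7F156, 9 without 7M55, 7F157, 10 without 7M56, 11 without 7F155, 3F121, 3F120. For cadmium alone the count was 6 without 7F156, 7F157, 5M37, 5F137. For doxorubicin alone the count was 1 without 5M39, 2 without 2F111, 3 without 3M19, 6M47, 4 without 2M10.

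Over 1174 refits of the 22 genes, 0 changed sign and 255 lost the call. Genes that had not passed and changed sign were these. Lcn2 (0.13) gave -0.044 (array weights) and -0.012 (Tobramycin left out of the mean). Clu (-0.05) gave 0.048 (Cisplatin left out of the mean) and -0.18 to 0.078 with 1 rat left out. Hmox1 (0.05) gave -0.030 (the Gapdh covariate) and -0.0058 to 0.11 with 1 rat left out. Mt2A (-0.04) gave 0.012 (array weights) and -0.14 to 0.0061 with 1 rat left out. Pdk4 (0.01) gave -0.010 (array weights), -0.019 (the Gapdh covariate), -0.0019 (Gentamycin left out of the mean) and -0.013 (Tobramycin left out of the mean) and -0.074 to 0.17 with 1 rat left out. Cry1 (0.08) gave -0.012 (the Gapdh covariate) and -0.086 (Gentamycin left out of the mean). No paired analysis was possible because a rat has a single array and no code ties rats of different groups together. Signals near the limit of 33.1 are the least certain.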
